A study of Drosophila melanogaster with 16 samples.

Results

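Myc and RNA polymerase (RNA Pol) were compared at the protein-coding genes where TaDa found peaks of both in wing imaginal discs of *Drosophila melanogaster*. TaDa (Targeted DamID) uses Dam, an adenine methylase from bacteria, joined to a protein of interest and made in chosen cells, where it marks GATC sites near the places that the protein contacts. A gene was included when at least 1 peak of Myc over Dam alone and at least 1 peak of RNA Pol over Dam alone overlapped it or lay within 1 kb. These shared genes numbered 1181 of the 13945 protein-coding genes on the chromosome arms, or 8.47%. Any Myc peak was found within 1 kb of 19.2% of all genes and any RNA Pol peak within 1 kb of 13.6%. A Myc peak without RNA Pol was found at 1494 genes, an RNA Pol peak without Myc at 715, and neither at 10555. Since the genes were chosen by the positions of the peaks in these lists, the counts and positions given here describe the lists and were not tested.

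Every sample came from female mid-third instar larvae that carried the *sd*-GAL4 driver with a temperature-sensitive GAL80. The groups used were Myc-Dam (3 samples), Pol-Dam (3 samples, Dam joined to the RpII18 subunit that RNA polymerases I, II and III have in common) and Dam-only (7 samples, of which 3 were set against Myc and 3 others against RNA Pol), and Psi-Dam (3 samples) enters only as a further list. Eggs were laid within 4 h at 25°C, larvae were kept at 18°C for 7 days to hold GAL4 off, and Dam was switched on for 24 h at 29°C in the *sd*-expressing cells of the disc. The titles and the series design give these groups, whereas a further description label names Psi RNAi for the Myc samples and Myc RNAi for the RNA Pol samples, and it was not used. The subunit does not tell the polymerases apart, and a Dam fusion made from a transgene is present in addition to the protein of the cell. Each list was called by the authors on the average of 3 samples, so no spread between replicates and no read depth can be given, and intervals below are 95% Wilson intervals that cover counting of genes or peaks only.

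The Myc list held 1951 peaks and the RNA Pol list 1568, and their median widths were 1401 bp for Myc and 1793 bp for RNA Pol. All started and ended at a GATC site, so widths, distances and edges are set by the spacing of these sites. No Dam-only sample was used for both proteins. Of 6 genes that mark wing cells, Myc peaks were found at 4 (*sd*, *ap*, *Dll* and *hth*) and RNA Pol peaks at 5 (*vg*, *nub*, *sd*, *Dll* and *hth*). In the longer list of 30 wing selector and patterning factors that holds these 6, Myc peaks were found at 40.0%, RNA Pol peaks at 46.7% and neither at 11 genes. Of 51 marker genes of neurons, muscle and myoblasts, haemocytes, trachea and fat body, Myc peaks were found at 8 (15.7%) and RNA Pol peaks at 7 (13.7%), near the shares over all genes. Both proteins were found at 3 of the wing genes (*sd*, *Dll* and *hth*) and at 5 of the 51 markers.

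Myc is a basic helix-loop-helix leucine zipper transcription factor that binds the E-box CACGTG together with its partner Max, and in flies it is known as a driver of cell growth, ribosome production and cell competition in the wing disc. RNA polymerase II starts at promoters, often pauses shortly downstream of the start, and then travels through the gene, so its contacts can lie over the start, the body or both. Many fly promoters also carry the DNA replication-related element (DRE) TATCGATA, which the factor Dref binds.

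E-boxes at the start sites of shared genes were shown by 6 examples in which the start site lay in a peak of each protein, because they give the letters that Myc is known to bind beside the base where transcription is annotated to begin. Each is printed 5′ to 3′ on the strand of the gene, from the Release 6 RefSeq genome, with the E-box in capitals. *Art3* encodes an arginine methyltransferase, *hoip* a small ribonucleoprotein component, *Ns1* a nucleostemin GTPase, *mRpS14* a mitochondrial ribosomal protein, *Polr1C* a subunit of RNA polymerases I and III, and *NetA* the guidance ligand Netrin-A.
*Art3* (chr3R:15229368-15229397, minus strand): tccaaatttccgCACGTGttcgcgccgctc
*hoip* (chr2L:9699807-9699836, plus strand): ctaacgctaacgCACGTGtttgaaagcgat
*Ns1* (chr3R:17072636-17072665, minus strand): gaagactattttCACGTGttcttgttttaa
*mRpS14* (chrX:19480241-19480270, minus strand): cgcacactggcaCACGTGttcacgcgcttc
*Polr1C* (chr2L:4969024-4969053, plus strand): tattgattccaaCACGTGcggttcaatttt
*NetA* (chrX:14653880-14653909, minus strand): cacgcatacacgCACGTGcagacgacacct
Counting the start-site base as 0 and positive into the gene, the first base of the E-box lay at 23 in *Art3*, 28 in *hoip*, 22 in *Ns1*, 32 in *Polr1C* and 31 in *NetA*, and at -20 in *mRpS14*. The *Ns1* site also lies 84 bases upstream of the divergent gene *mRpS11*, and the *Polr1C* site 106 bases upstream of *Scox*.

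DRE matches at start sites that lay in peaks of both proteins are shown for 4 genes, as the second motif counted below. *Dredd* encodes a caspase of the Imd immune pathway, *Rtel1* a DNA helicase of telomere biology in mammals and *Ubc4* a ubiquitin-conjugating enzyme. *tok* encodes a Tolloid-like protease that cleaves the secreted protein Sog. The DRE is in capitals.
*Dredd* (chrX:635575-635604, minus strand): acatatccattTATCGATAtcgatcggtgg
*Rtel1* (chrX:5747744-5747773, plus strand): ccactgtactcTATCGATAgcgataactga
*Ubc4* (chr3L:9698255-9698284, plus strand): ccccgaagcccTATCGATAcgtcaatcgat
*tok* (chr3R:24719610-24719639, plus strand): agttctgttctTATCGATAcgtttgtgcca
The first base of the DRE lay at -48 in *Dredd*, 8 in *Rtel1*, -70 in *Ubc4* and -76 in *tok*.

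At most shared genes Myc and RNA Pol lay on the same stretch of DNA. Peaks of Myc and RNA Pol had 1 bp or more in common at 1065 of the 1181 genes (90.2%, interval 88.3 to 91.7), which is 7.64% of all protein-coding genes, and at the other 116 the peaks were separate. Restricting the count to the 921 genes that a peak of each protein touched, 849 (92.2%) had overlapping peaks. Most shared genes, 841 or 71.2%, had 1 peak of each. The members just inside the distance limit were *isoQC* with the farther peak at 1000 bp, *RanBPM* at 999 bp and *Polr1E* at 991 bp, and those just outside were *bark* at 1005 bp, *BBS8* at 1006 bp and *Ctr9* at 1016 bp. The number of shared genes depended on how strictly peaks were used: it was 633 with peaks at an FDR of 0.1% and 631 when each peak was given to a single gene, with overlapping peaks at 89.9% and 88.6% of them.

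The overlap was seldom an exact match of edges. The peaks at shared genes formed 705 overlapping pairs, of which 108 (15.3%) had both edges in common, 295 (41.8%) had 1 edge in common and 302 (42.8%) had none. Myc lay inside a wider RNA Pol peak in 169 pairs, RNA Pol lay inside a wider Myc peak in 217, and 211 pairs overlapped in part. The median overlap was 1333 bp, which held a median of 90.9% of the Myc peak and 94.6% of the RNA Pol peak. Identical peaks were found at *Mondo*, which encodes a bHLH-leucine zipper factor of the extended Myc network, at *hep*, the JNK kinase hemipterous, at *HisRS*, the histidine-tRNA ligase, and at the divergent pair *Art3* and *mRpS10*. A single pair of peaks often served neighbouring genes, as 359 of the 705 pairs lay within 1 kb of more than 1 shared gene. Divergent neighbours were frequent: 519 shared genes (43.9%) had another gene starting in the opposite direction within 1 kb upstream, against 33.3% of all protein-coding genes. The choice of genes favours this share, since a pair of peaks between divergent starts within 1 kb brings in both genes.

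Overlap was more frequent among peaks at shared genes than in the whole lists, as the choice of genes favours. Of the 976 Myc peaks at shared genes 686 (70.3%) overlapped RNA Pol, and of the 978 RNA Pol peaks 697 (71.3%) overlapped Myc. Over the whole lists these shares were 39.6% and 50.3%. Myc peaks that overlapped RNA Pol were wider, with a median of 1750 bp, than the Myc peaks at shared genes that did not, with 1159 bp, whereas RNA Pol peaks had medians of 1819 bp and 1826 bp. Peak scores were only weakly related between the proteins where both had a peak. The score is the authors' value for each peak, and its formula is not stated, so scores were ranked within a list only. Over the 705 pairs Spearman's rho between Myc and RNA Pol scores was 0.14, and over the best ranks at the 1181 genes it was 0.15. These are descriptions across peaks and genes, which are not independent replicates.

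Genes ranked high by both proteins had diverse roles. The 10 genes named for the best worse rank, counted once per pair of peaks, were *kirre*, *Mondo*, *Dd*, *COX8*, *rdgBbeta*, *Chsy*, *CG34263*, *Dredd*, *IntS6* and *Art3*. The last place was a tie, since *Hrb98DE* and *hoip*, at other pairs of peaks, had the same worse rank as *Art3*, 104 in the RNA Pol list. *Mondo* had the Myc peak ranked 22 of 1951 and the RNA Pol peak ranked 49 of 1568, both covering the same 3116 bp over the start site (chr2L:21307729-21310844). *COX8*, a cytochrome c oxidase subunit, had ranks of 74 and 54, and all of this gene lay in the Myc peak against 49.4% in the RNA Pol peak. *kirre*, an immunoglobulin cell adhesion gene of myoblast founder cells, had ranks of 43 and 30, and its 394 kb held 5 Myc peaks and 4 RNA Pol peaks. Its start site lay in a Myc peak, but the nearest RNA Pol peak began 223 kb downstream.

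Both proteins were centred on the start site when the shared genes were averaged. The start site was taken as the outermost annotated start, and genes of at least 2 kb were used so that the start, body and end could be told apart. Among these 910 genes the start lay in a Myc peak at 450 (49.5%, interval 46.2 to 52.7) and in an RNA Pol peak at 441 (48.5%, 45.2 to 51.7), against 11.7% and 9.53% of all 7428 genes of that length. It lay in both at 350 (38.5%), in Myc alone at 100, in RNA Pol alone at 91 and in neither at 369 (40.5%). The share in both was 4.71% over all genes of that length. The 3′ end lay in a Myc peak at 65 shared genes (7.14%) and in an RNA Pol peak at 71 (7.80%). Genes with Myc alone had their start in a Myc peak in 44.6% of 935 cases, and genes with RNA Pol alone had it in an RNA Pol peak in 53.7% of 497.

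**Figure D1:**
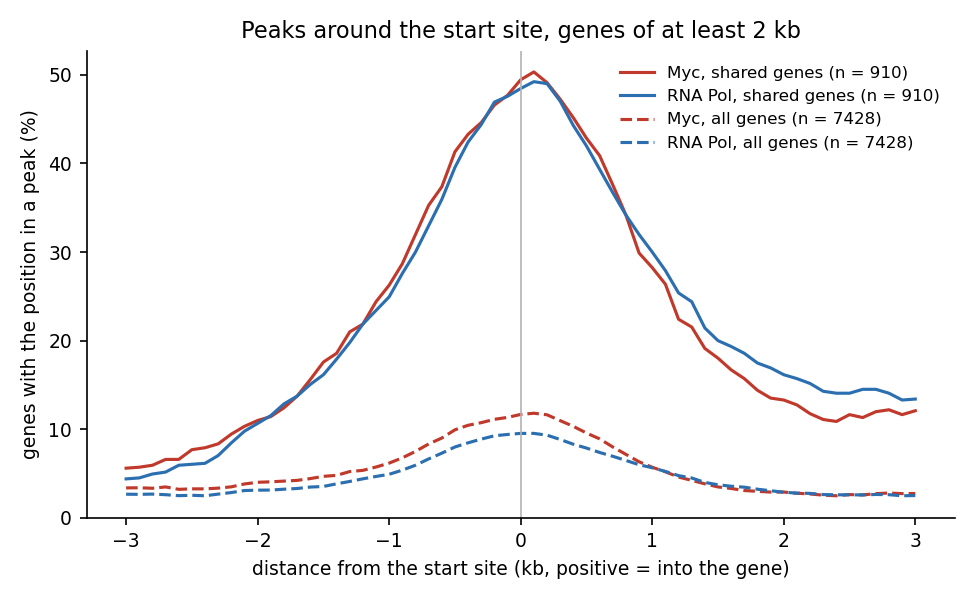
Percentage of genes of at least 2 kb in which a position lay in a Myc peak (red) or an RNA Pol peak (blue), against the distance from the start site in kb, for the 910 shared genes (solid lines) and for all 7428 genes (dashed lines). The solid lines are highest 100 bp into the gene, at 50.3% for Myc and 49.2% for RNA Pol, and from 1 kb to 3 kb into the gene the RNA Pol line lies above the Myc line.

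Where both covered the start, the edges were often the same, and where they differed Myc more often reached farther on either side. Over these 350 genes the Myc peak ended a median of 838 bp downstream and the RNA Pol peak 831 bp downstream. The downstream edge was the same GATC site at 163 genes, farther for Myc at 117 and farther for RNA Pol at 70. Upstream, the medians were 843 bp for Myc and 778 bp for RNA Pol, and the upstream edge was the same at 166 genes, farther for Myc at 119 and farther for RNA Pol at 65. Where a pair of peaks covered divergent starts, its edges were counted for each gene, so the upstream and downstream counts are not independent.

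A start site outside the peaks was most frequent in long genes. In shared genes of 2 to 5 kb the start lay in a Myc peak at 62.0% and in an RNA Pol peak at 60.9%, in genes of 5 to 20 kb at 51.9% and 50.4%, and in the 246 genes of at least 20 kb at 31.7% for each. When Myc missed the start, the nearest Myc peak lay downstream at 394 of 460 genes (85.7%), and for RNA Pol this held at 398 of 469 (84.9%). At the 369 genes where neither covered the start, the peaks still overlapped each other at 317 (85.9%). In those genes Myc was nearer to the start at 119, RNA Pol at 129 and the distances were equal at 121. When the start of any annotated transcript was allowed, the share in neither fell to 28.0%, and 61.5% of the genes had a start in Myc and 61.1% in RNA Pol.

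Coverage of the gene body was alike on average and differed with gene length. Peaks of Myc covered a median of 9.08% of the body (1.08 kb) and peaks of RNA Pol 10.1% (1.16 kb), and 5.14% lay in both. Per gene, Myc covered more at 325 genes, RNA Pol covered more at 348 and the cover was equal at 237. Over the 910 genes Spearman's rho between the coverages was 0.64, a description in which both share the length of the gene and the spacing of GATC sites. In genes of 2 to 5 kb, Myc covered more at 109 and RNA Pol at 59 of 271. At 5 to 20 kb these counts were 139 and 142 of 393. In genes of at least 20 kb they were 77 and 147 of 246, with medians of 3.97% for Myc and 5.45% for RNA Pol. Counts on the same side were found at the 5 other settings of the peaks tried, including peaks at an FDR of 0.1%, where Myc covered more at 53 and RNA Pol at 36 of 143 genes of 2 to 5 kb, and at 40 and 85 of 140 genes of at least 20 kb.

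The part of the body that was covered fell away from the start for both proteins. Each body was divided into 10 equal parts, and the middle base of each was scored. Part 1, next to the start, lay in a Myc peak at 41.2% of the genes and in an RNA Pol peak at 43.7%. For part 3 these shares were 20.2% and 19.9%, and for part 10 at the 3′ end 4.62% and 5.05%.

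The genes with the largest differences in coverage had mixed roles. Among shared genes of at least 5 kb, Myc exceeded RNA Pol most at *MFS14*, a transporter of the major facilitator family, *Sam-S*, the S-adenosylmethionine synthetase, *pita*, an insulator protein, *Cdk4*, a cyclin-dependent kinase that promotes growth, and *wde*, a cofactor of histone methylation. *Sam-S* had 77.5% of its body in Myc peaks and 32.8% in the RNA Pol peak. *Cdk4* had 56.4% in Myc peaks and 22.3% in the RNA Pol peak, and the peak over its start was identical in the 2 lists while a further Myc peak lay 2.96 kb into the gene. RNA Pol exceeded Myc most at *Bacc*, at *mts*, the catalytic subunit of protein phosphatase 2A, at *phyl*, an adaptor in neuronal fate choice, at *Lk6*, a kinase of the translation factor eIF4E, and at *Tis11*, a zinc finger protein of mRNA decay. *Bacc* had 4.34% of its body in the Myc peak and 96.9% in RNA Pol peaks, and *Lk6* had 15.1% and 51.3%.

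**Figure D2:**
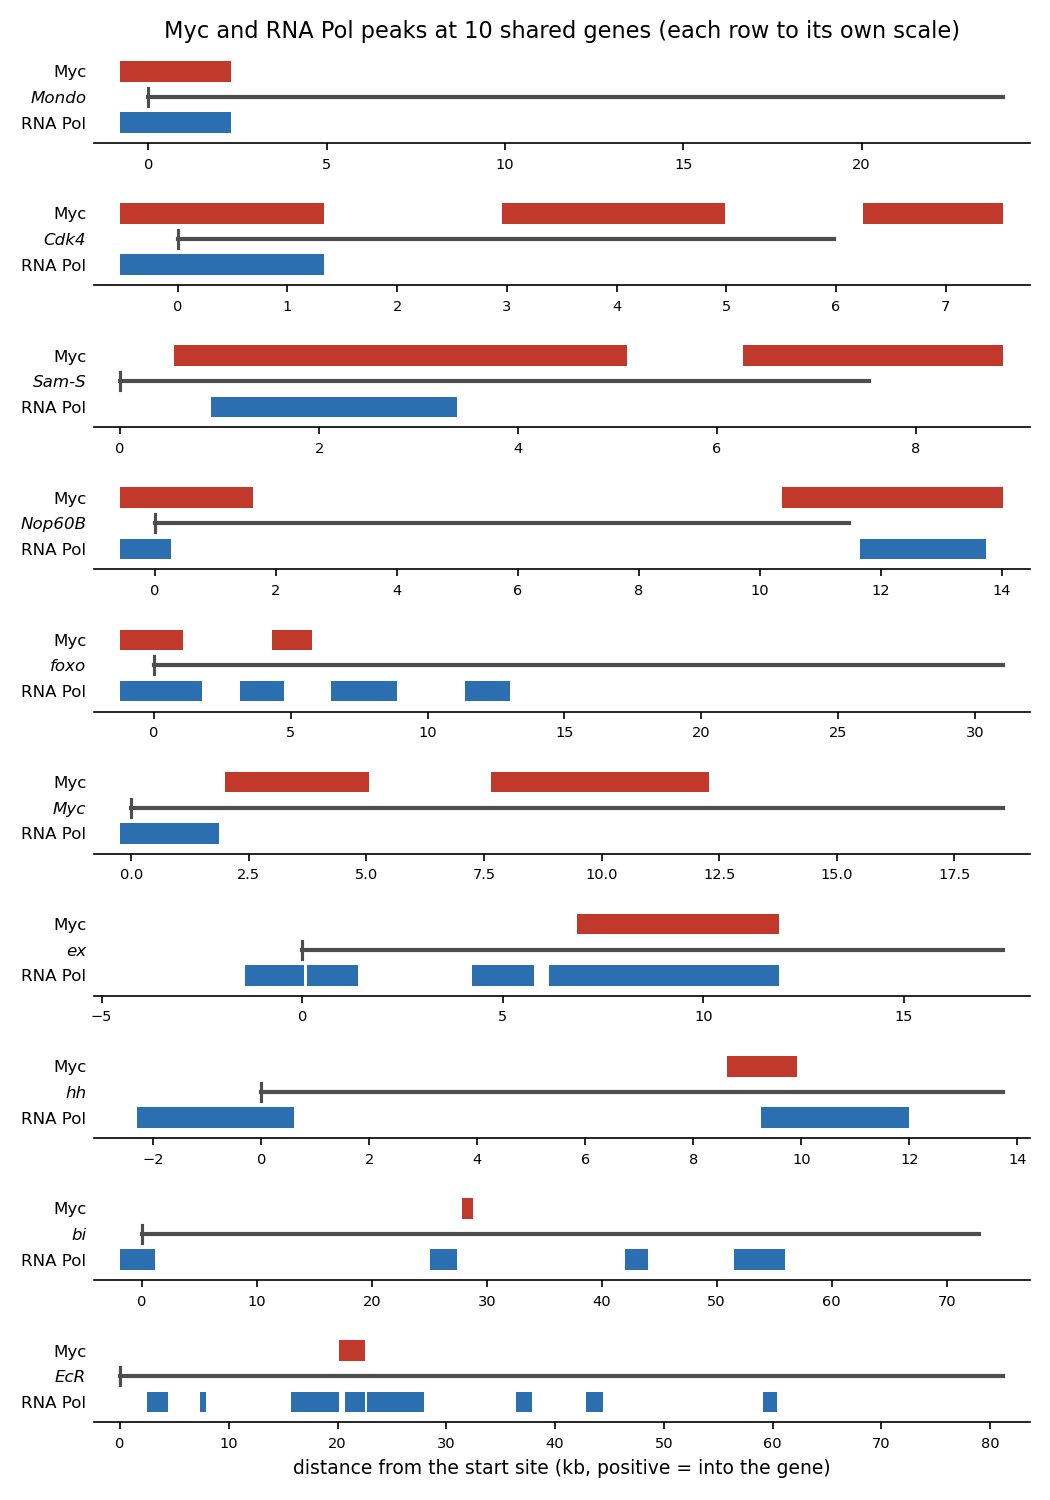
Myc peaks (red, above) and RNA Pol peaks (blue, below) at 10 shared genes, drawn against the distance from the start site in kb with each row to its own scale, where the grey line is the gene from start to end. The peaks of *Mondo* are identical and those at the start of *Cdk4* too, whereas *ex*, *hh* and *bi* have Myc only farther in and RNA Pol at the start, and *EcR* has 1 Myc peak and 8 RNA Pol peaks.

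The annotation under the peaks differed in coding exons and introns, at shared genes as in the whole lists. Of the bases of Myc peaks at shared genes 53.3% were intronic, 17.8% lay in untranslated exons, 11.3% in coding exons and 17.6% outside protein-coding genes. For RNA Pol peaks these shares were 61.1%, 17.1%, 6.79% and 15.0%, and over the chromosome arms they were 42.1%, 8.03%, 17.1% and 32.8%. The difference was wider in peaks that did not overlap the other protein: coding exons made up 15.1% of such Myc peaks and 4.34% of such RNA Pol peaks, and introns 57.6% and 72.0%. The bases that lay in both were 53.4% intronic and 20.3% in untranslated exons. In the whole lists coding exons made up 13.7% of the bases of Myc peaks and 6.26% of those of RNA Pol peaks, and introns 40.6% and 51.9%. The part of GATC density, which differed between the sets, was not tested.

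E-boxes were most frequent in Myc peaks away from shared genes and least frequent in RNA Pol peaks without Myc. Windows of 1 kb at the peak centre were searched for CACGTG, which reads the same on both strands. A match was found in 107 of 686 Myc peaks that overlapped RNA Pol (15.6%, interval 13.1 to 18.5), in 60 of 290 Myc peaks at shared genes that did not (20.7%, 16.4 to 25.7), and in 252 of 975 Myc peaks elsewhere (25.8%, 23.2 to 28.7). Among RNA Pol peaks it was found in 13.3% of those that overlapped Myc, in 15 of 281 at shared genes that did not (5.34%, 3.26 to 8.62), and in 7.81% of those elsewhere. All 1-kb windows of the arms held one in 11.3%, and windows centred on the bases in both peaks in 94 of 705 (13.3%). At shared genes the intervals of the Myc peaks with and without RNA Pol overlapped, so a difference between these sets was not resolved by the counts. The peak sets also differed in the density of GATC sites, at 3.25 per kb in the Myc peaks that overlapped RNA Pol, 4.27 in those that did not and 2.73 in the RNA Pol peaks that did not overlap Myc, and in GC content, at 42.2%, 43.5% and 40.8%. The part of these differences in the E-box shares was not tested. At shared genes the order of the shares, with Myc peaks without RNA Pol above Myc peaks with it and RNA Pol peaks without Myc below both, was the same in windows of 500 bp and 2 kb and with peaks at an FDR of 0.1%.

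At start sites the E-box was most frequent in genes with Myc alone. In the 300 bases from 250 upstream to 50 downstream, it was found at 25 of 480 shared genes of any length whose start lay in both (5.21%, interval 3.55 to 7.58), at 10 of 125 with the start in Myc alone and at 2 of 100 with the start in RNA Pol alone. Genes with Myc alone and the start in its peak held one at 94 of 715 (13.1%), genes with RNA Pol alone at 2.37% of 379, and all protein-coding genes at 4.20%. The interval at starts in both thus included the share over all genes. Of 26 matches at starts in both, 13 had their first base downstream of the start. The downstream part makes up 15.3% of the positions searched. It ends at 50 bases, which bounds the distance of these 13, found between 16 and 37 bases. *Art3*, *hoip*, *Ns1*, *Polr1C* and *NetA*, printed above, are 5 of these. In genes with Myc alone and the start in its peak, 44 of 95 matches (46.3%) lay downstream. Over all protein-coding genes 31.2% of 597 matches lay downstream, so this placement was not limited to shared genes.

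The DRE had another distribution. TATCGATA, searched on both strands, was found in 9.04% of Myc peaks that overlapped RNA Pol, in 8.28% of those at shared genes that did not and in 9.74% of those elsewhere. It was found in 8.61% of RNA Pol peaks that overlapped Myc, in 4.98% of those that did not and in 4.24% elsewhere, against 2.78% of all windows. At the start sites of shared genes it was found in 16.7% of those in both, in 14.4% in Myc alone, in 13.0% in RNA Pol alone and in 11.3% in neither, against 9.36% over all genes. The intervals of the 3 Myc sets overlapped.

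**Figure D3:**
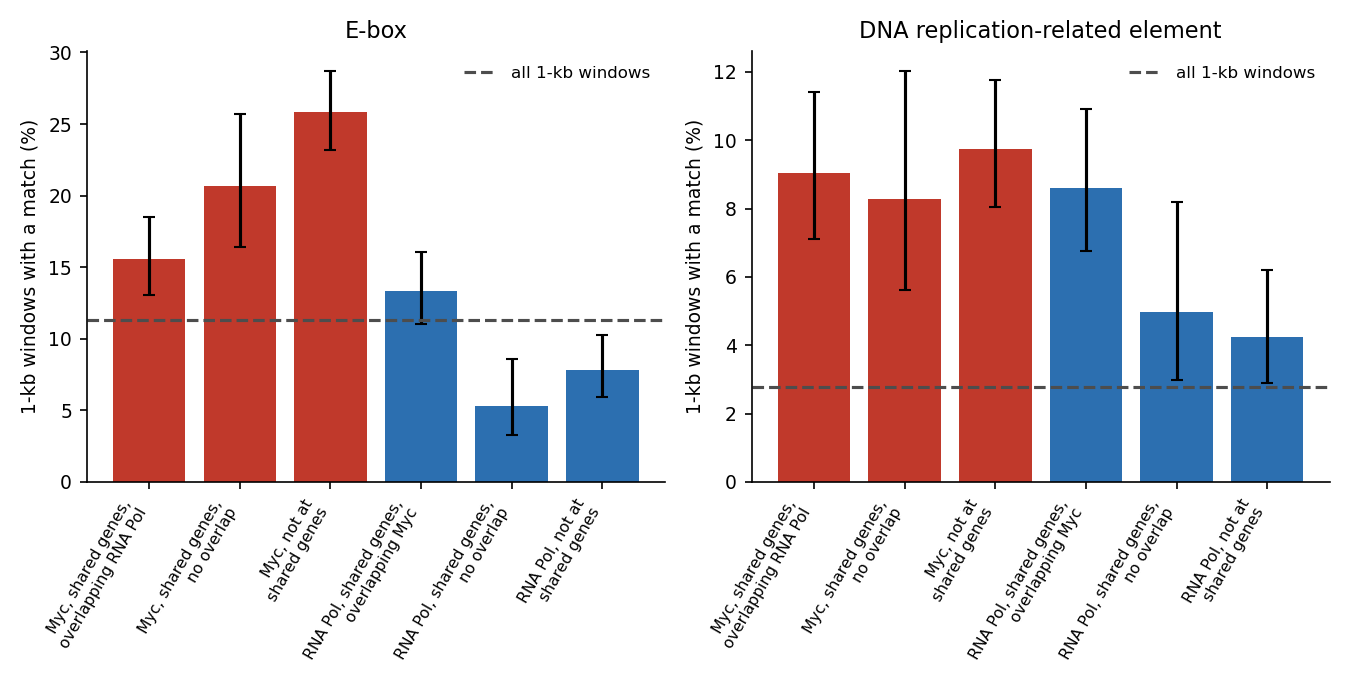
Percentage of 1-kb windows at peak centres that hold the E-box (left) or the DNA replication-related element (right) in sets of Myc peaks (red) and RNA Pol peaks (blue), with 95% Wilson intervals as error bars and the share over all windows of the arms as a dashed line. For the E-box, Myc peaks elsewhere are highest at 25.8% and RNA Pol peaks at shared genes without Myc are lowest at 5.34%, and for the other element the 3 Myc sets lie between 8.28% and 9.74%.

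Shared genes were longer than the others, which bears on every count by function. Their median length was 5.84 kb, against 2.71 kb for Myc alone, 3.87 kb for RNA Pol alone and 1.93 kb for neither. Peaks of both were found at 4.16% of genes under 2 kb, 6.87% of genes of 2 to 5 kb, 15.9% of genes of 5 to 20 kb and 24.3% of genes of at least 20 kb. Lists of long genes therefore start from a higher share. Of the shared genes 155 belong to the gene lists below and 305 carry only a CG number as their name.

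Growth genes were shared at 64 of 348 (18.4%), against 8.47% of all protein-coding genes. Another 81 had Myc alone, 22 had RNA Pol alone and 181 had neither. Myc alone was thus more frequent than both proteins, as it was over all protein-coding genes, where 1494 had Myc alone and 1181 had both. Cytoplasmic ribosomal protein genes were shared at 20 of 88 and had Myc alone at 35 and RNA Pol alone at 3, and the peaks overlapped at all 20. Translation factors were shared at 7 of 53 with Myc alone at 13, and genes of ribosome biogenesis and the nucleolus at 4 of 28 with Myc alone at 10. Aminoacyl-tRNA synthetases were shared at 2 of 18 with Myc alone at 3. In the remaining growth lists both proteins were found at more genes than Myc alone. Cell cycle regulators were shared at 9 of 35, with Myc alone at 8 and RNA Pol alone at 3, and mitochondrial ribosomal protein genes at 9 of 73, with Myc alone at 7 and RNA Pol alone at 4. Subunits of RNA polymerases were shared at 6 of 30, with Myc alone at 4 and RNA Pol alone at 3, and genes of the insulin and TOR pathway at 3 of 17, with Myc alone at 1 and RNA Pol alone at 5. In the Myc network 4 of 6 genes were shared and none had 1 protein alone. The count of shared growth genes was 38 of 348 at an FDR of 0.1% and 28 of 348 when each peak was given to a single gene. Over all 13945 protein-coding genes the shared counts at these settings were 633 and 631.

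Among the 30 shared growth genes of at least 2 kb, Myc covered more of the body at 16, RNA Pol at 6 and the cover was equal at 8. Their median length was 4.62 kb, and short shared genes at large had the same order: at 2 to 5 kb Myc covered more at 8 and RNA Pol at 2 of 16 growth genes, against 109 and 59 of all 271 shared genes of that length. Nothing particular to growth genes is read from these counts. *Nop60B*, which encodes the pseudouridine synthase dyskerin, had 2 Myc peaks ranked 15 and 4 of 1951 and 23.8% of its body in Myc, against 2.28% in RNA Pol. *RpS16* had 92.5% in Myc and 44.5% in RNA Pol, and *eEF1alpha1*, a translation elongation factor, had 50.6% and 29.6%. The reverse was found at *RpL10*, with 31.6% in Myc and 97.8% in RNA Pol, at *foxo*, the transcription factor downstream of insulin signalling, with 8.16% and 24.0%, and at *E2f1*, the activator of S phase genes, with 15.2% and 29.7%. Equal cover was found at *Mondo*, *HisRS* and *eIF3l*, whose peaks were identical.

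Of 195 genes in the signalling and patterning lists 58 (29.7%) were shared, against 8.47% of all protein-coding genes and 24.3% of those of at least 20 kb. Another 26 had Myc alone, 33 had RNA Pol alone and 78 had neither. The shared count was 42 of 195 at an FDR of 0.1%. It was 51 of 195 when each peak was given to a single gene, a setting that lowered the growth count more, from 64 to 28 of 348. EGFR pathway genes were shared at 8 of 18, with Myc alone at 0 and RNA Pol alone at 2, genes of ecdysone response and nuclear receptors at 7 of 14, and Hippo and Fat-Dachsous genes at 7 of 18. Wg pathway genes were shared at 8 of 28, Notch pathway genes at 5 of 18, Dpp and BMP pathway genes at 5 of 20 and wing selector and patterning factors at 7 of 30. Lowest were Hh pathway genes at 3 of 16 (18.8%) and JAK-STAT and JNK genes at 3 of 15 (20%). Genes of planar cell polarity and adhesion were shared at 3 of 12 and Hox genes at 3 of 8. These genes had a median length of 28.8 kb among the 56 shared ones of at least 2 kb, against 4.62 kb for the 30 growth genes. Myc covered more at 18 of the 56, RNA Pol at 35 and the cover was equal at 3. At 20 kb or more Myc covered more at 10 of 38 and RNA Pol at 28, against 77 and 147 of all 246 shared genes of that length, so RNA Pol also covered more at most long shared genes at large.

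**Figure D4:**
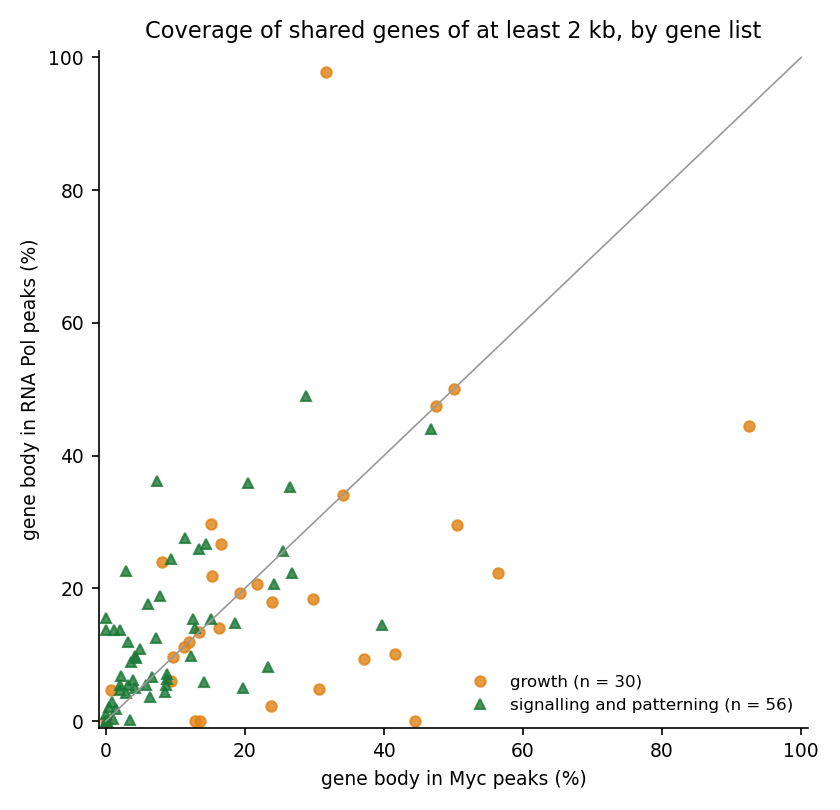
Percentage of the gene body in Myc peaks (horizontal axis) and in RNA Pol peaks (vertical axis) for shared genes of at least 2 kb in the growth lists (orange circles, 30 genes) and the signalling and patterning lists (green triangles, 56 genes), where the line marks equal cover. Of the growth genes 16 lie on the Myc side and 6 on the RNA Pol side, and of the signalling and patterning genes 18 and 35.

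Several developmental regulators had Myc only far inside or beyond the gene and RNA Pol at or near the outermost annotated start. Other annotated starts of these genes do not enter the distances given, so a Myc peak inside a gene may lie at one of them. *EcR*, the ecdysone receptor, had 1 Myc peak 20.2 kb into the gene and 8 RNA Pol peaks, the nearest 2.45 kb from the start. *bi*, the T-box target of Dpp known as optomotor-blind, had its Myc peak 27.9 kb in and 4 RNA Pol peaks, of which the first covered the start. *hh*, the Hedgehog ligand, had the Myc peak 8.62 kb in and an RNA Pol peak over the start. *ex*, the upstream Hippo pathway gene expanded, had the Myc peak 6.85 kb in, inside an RNA Pol peak that shared its downstream edge, and 3 further RNA Pol peaks from the start on. *Dll*, the appendage selector gene, had its Myc peak just beyond the 3′ end, 21.2 kb from the start, and an RNA Pol peak over the start. *Egfr*, the EGF receptor, had Myc from 7.29 kb and RNA Pol from 0.744 kb. At *N*, the Notch receptor, neither was at the start: the nearest of 3 Myc peaks lay 5671 bp in and the nearest of 6 RNA Pol peaks 3789 bp in, with 7.45% of the body in Myc and 36.2% in RNA Pol.

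The opposite order was found at fewer of these genes. Among the 56, the start lay in Myc without RNA Pol at 4, in RNA Pol without Myc at 9 and in both at 12. For all 246 shared genes of at least 20 kb these counts were 26, 26 and 52. The counts of 4 and 9 are small, and their difference was not tested. *rdx*, the ubiquitin ligase adaptor roadkill of the Hh pathway, had Myc over the start and RNA Pol 39.8 kb in. *dachs*, an atypical myosin of the Fat pathway, had 4 Myc peaks from 2.00 kb in and 1 RNA Pol peak at 10.8 kb. With peaks at an FDR of 0.1% the totals for the start turned round in these lists, to 11 in Myc and 9 in RNA Pol of 40, against 16 and 21 of 56, so this order of the starts depended on the threshold. The order of coverage did not, at 10 for Myc and 27 for RNA Pol of those 40.

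Separate peaks were more frequent in long genes than in short ones. Peaks still overlapped at 201 of the 246 shared genes of at least 20 kb (81.7%), against 93.0% at 2 to 5 kb. At the 116 genes without overlap the median gap between the nearest peaks was 2.28 kb, and 23 had a gap of at least 10 kb. Their median length was 15.7 kb, against 5.38 kb where peaks overlapped. At least 20 kb long were 45 of the 116 (38.8%), against 20.8% of all shared genes. Myc was nearer to the start at 53 and RNA Pol at 63. The widest gaps were 66.2 kb in *fz*, the Frizzled receptor, 65.2 kb in *Flo2*, 63.1 kb in *Ubx*, 51.6 kb in *CG43759* and 51.1 kb in *Antp*. In *Antp*, a Hox gene, Myc lay 58.7 kb in and RNA Pol covered the start. *Ubx*, the Hox gene that sets haltere fate, had Myc just beyond its 3′ end and RNA Pol 14.2 kb in.

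The *Myc* gene was among those with separate peaks. *Myc* lies on the plus strand of the X chromosome of BDGP6 (chrX:3373159-3391697). The first of 2 Myc peaks began 1.99 kb into the gene, 121 bp beyond the edge of an RNA Pol peak of 2106 bp that covered the start. Myc peaks covered 41.6% of the body and RNA Pol 10.1%. Of the bases of the Myc peaks 35.3% and 19.9% were coding, against 0.95% of the RNA Pol peak. The sources used here do not describe how the Myc-Dam transgene was made. Where it holds coding exons of *Myc*, signal from the transgene and from the locus cannot be told apart. The other shared genes of the network were *Mnt*, the repressor partner of Max, with both peaks from 1.61 kb in, *crp*, with 30.7% of the body in Myc and 4.79% in RNA Pol, and *Mondo*, while *Max* and *bigmax* had neither.

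Other genes of interest to the study were placed as follows. *tok* had both proteins over the start, with the RNA Pol peak inside the Myc peak. *Psi*, the KH-domain gene of the third fusion, had partly overlapping peaks over the start. *chic*, the profilin gene, had its nearest Myc peak 687 bp upstream and RNA Pol over the start. *emp* and *Exn* had overlapping peaks inside the gene, and so had *fz2*, 39.9 kb from the start. Of those not shared, *stg*, the Cdc25 phosphatase that triggers mitosis, had Myc alone over its start and 47.4% of its body, *dally* and *dlp*, the glypicans of Wg and Dpp spreading, had RNA Pol alone, and *Polr2F*, the gene of the RNA Pol fusion, had neither.

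Shares in the lists outside growth and signalling are read beside the 8.47% over all protein-coding genes. Splicing factors and hnRNPs were shared at 9 of 25, and *Hrb98DE* had the Myc peak ranked 5 and the RNA Pol peak ranked 104. Genes of chemosensory receptors and binding proteins, known for their roles in sense organs, were shared at 7 of 230 (3.04%), and their median length was under 2 kb, a size at which 4.16% of all genes were shared. Haemocyte and fat body markers were shared at 0 of 10 and 0 of 9, lists in which fewer than 1 gene would be shared at the rate of all genes. Muscle and myoblast markers were shared at 3 of 13, *kirre*, *Mef2* and *twi*, with *twi* holding 5 Myc peaks and 2 RNA Pol peaks. Neuron markers were shared at 1 of 12 (8.33%), near the share over all genes. The 1 gene was *elav*, which had identical peaks over its start. Trachea markers were shared at 1 of 7. Whether these peaks come from other cells of the disc was not tested.

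**Figure D5:**
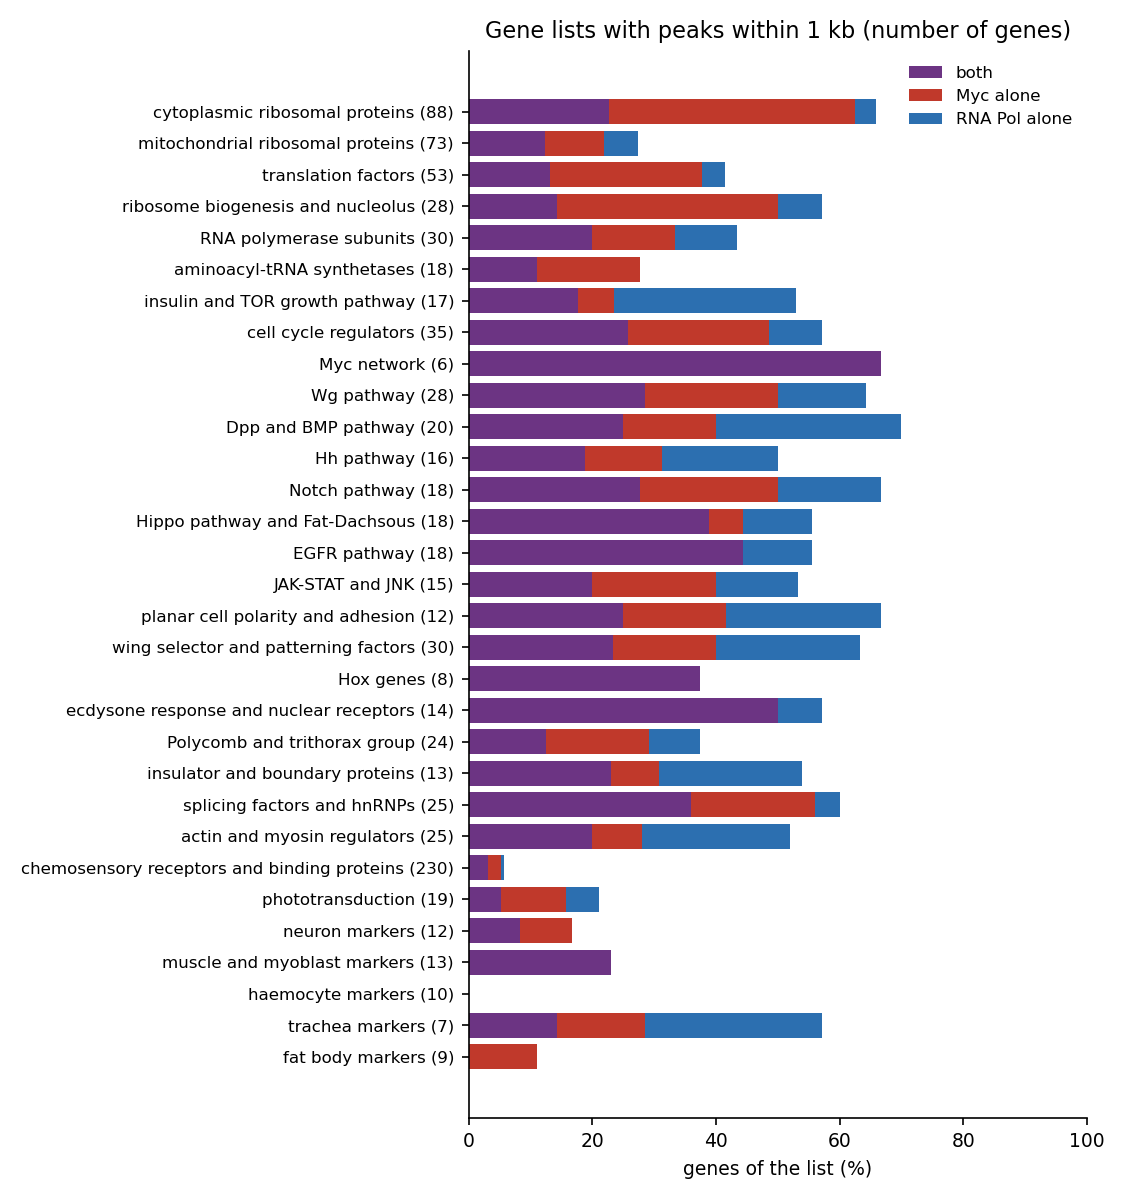
Percentage of each gene list with peaks of both proteins (purple), of Myc alone (red) and of RNA Pol alone (blue) within 1 kb, with the number of genes in brackets. Cytoplasmic ribosomal protein genes have Myc alone at 35 of 88 and both at 20, EGFR pathway genes have both at 8 of 18 and Myc alone at 0, and chemosensory genes have both at 7 of 230.

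Psi, an RNA- and DNA-binding KH protein, was frequent at shared genes. A Psi peak lay within 1 kb of 515 of the 1181 (43.6%, interval 40.8 to 46.5), of 14.9% of genes with Myc alone, 24.1% with RNA Pol alone and 1.85% with neither, against 7.92% of all protein-coding genes. Among shared signalling and patterning genes 49 of 58 had one, and among shared growth genes 26 of 64. Psi and RNA Pol had a Dam-only sample in common, Psi and Myc had none, and gene length also differed between these groups.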

How the data were processed

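Per the labels and methods, the authors mapped reads to BDGP6 (Bowtie2, run by damidseq_pipeline), took normalised log2 ratios of each fusion over Dam alone for GATC fragments, averaged the 3 replicates, and ran find_peaks with an FDR limit of 1%. For these tools no version is given in the sources read. Each deposited list holds peak positions, a score and an FDR, and scores were only ranked within a list.

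Gene models came from Ensembl release 115 (BDGP6.54) and sequence from the RefSeq Release 6 genome. Intervals were compared in Python 3.11.15 with NumPy 2.4.6, pandas 2.3.3 and SciPy 1.17.1 by functions tested on simulated data, and plots used Matplotlib 3.10.9. The shared genes and gene lists were chosen with earlier results of these data known. No test across genes was made, since lists are averages and the peaks chose the genes. Named genes are the 10 best by worse rank, up to 3 per list by the same rank, the 5 largest and 5 smallest coverage differences, the 5 widest gaps, and genes named by the study. *RpS16*, *RpL10*, *eEF1alpha1*, *crp*, *N* and *dachs* were chosen after their values were seen, and so were *hoip*, *mRpS14*, *Polr1C*, *NetA*, *Rtel1* and *Ubc4* for their motifs. Alternatives varied the distance, FDR, merging, start site, gene length and overlap.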

Additional observations from a re-analysis of the deposited data

How the results depend on the processing

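No paired analysis was possible because each list is an average over its 3 samples, so replicates were neither blocked nor left out. Depth is unknown. Of 84 values under other settings 40 stayed within the interval of the main value, or within 1.5 times for counts.

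With peaks that overlap the gene, the start site lay in Myc at 56.3%, in RNA Pol at 54.7%, in both at 46.2% and in neither at 35.1%, with median coverage of 11.9% and 12%. Within 2 kb, it lay in RNA Pol at 43.3%, in both at 33.8% and in neither at 44.3%, with coverage of 7.71% and 8.44%. At an FDR of 0.1%, 633 genes were shared, RNA Pol coverage was 11.9%, 38 growth genes were shared, and 2.05% of RNA Pol peaks without Myc held an E-box. With each peak given to a single gene, 631 genes and 28 growth genes were shared, the start lay in Myc at 46.2%, in RNA Pol at 45.0% and in neither at 44.3%, and coverage was 11.5% and 13.8%. Requiring 50% of the shorter peak, 86.3% of genes had overlapping peaks. With any annotated start, the shares were 61.5% in Myc, 61.1% in RNA Pol, 50.7% in both and 28.0% in neither. Over genes of any length, Myc coverage was 10.9%. For genes of at least 5 kb, the start shares were 44.1%, 43.2%, 32.2% and 44.9%, and coverage was 7.44% and 8.93%. Within 500 bp of a peak, the start shares were 59.3%, 59.8%, 51.0% and 31.9%.

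In settings chosen after seeing the data, E-box shares in Myc peaks with RNA Pol, Myc peaks without it and RNA Pol peaks without Myc were 9.04%, 11% and 2.85% in windows of 500 bp (5.83% over all such windows), and 27.6%, 33.1% and 13.9% in windows of 2 kb (21.1%). Counts of list genes under other settings were added in the same way. Fewer genes enter with peaks that overlap the gene, at an FDR of 0.1% and with each peak given to a single gene. The same holds for genes of at least 5 kb, whereas more enter within 2 kb and over genes of any length. Why the values moved was not tested.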
